A study of Mus musculus with 6 samples.

Results

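The 35 genes described here make cholesterol and fatty acids, regulate that synthesis, or move cholesterol across and out of the cell. They were chosen by name: every probe carrying one of the 35 names on single-colour Agilent mouse expression arrays was taken, control spots aside, which gave 66 of 41174 probes. Of these, 59 probes passed a filter on dim signal, and each of the 35 genes kept at least 1 probe, so all 35 were among the 16293 genes tested. Among them, 18 enzymes form the sterol branch, with 7 in the mevalonate arm (acetyl-CoA to farnesyl diphosphate) and 11 in the squalene and sterol arm (farnesyl diphosphate to cholesterol). The fatty acid branch has 9 enzymes, and 5 regulators and 3 transport genes complete the set.

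The arrays measured primary cultures of C4HD, an ErbB-2 positive mammary tumour of female BALB/c mice. It arose under medroxyprogesterone acetate, a progestin, and was kept by transplantation into mice given the same progestin. Cultures came from the sedimented, epithelium-enriched fraction and were plated in steroid-stripped serum, all of which both groups share. With siPORT NeoFX, 3 cultures received 30 nM of pre-miR-16, a precursor of the microRNA miR-16, and 3 received 30 nM of pre-miR-Control, a scrambled precursor that yields no known mammalian microRNA. RNA was taken at 48 h. The groups are described by the labels as biological replicates, without saying whether each came from its own tumour, so p-values measure the spread between these 6 samples. The level of miR-16 itself was not analysed here.

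Cells that run short of sterol let SCAP carry the membrane-bound SREBP factors from the endoplasmic reticulum to the Golgi, where they are cut and released to switch on synthesis genes. INSIG proteins hold that step back when sterol is plentiful. SREBP-2 chiefly drives the sterol enzymes and SREBP-1 the fatty acid enzymes, whereas the oxysterol receptors of the LXR family switch on the cholesterol exporters ABCA1 and ABCG1. Mammary epithelium is a tissue where lipid synthesis is a specialised function, since it makes milk fat.

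Mature miR-16 is shown because it is the agent that separates the groups. It pairs with target transcripts chiefly through its seed, bases 2 to 8, given in capitals, and RefSeq (GRCm38.p6) lists the same mature strand from Mir16-1 (chr14:61631936-61631957, minus strand) and Mir16-2 (chr3:69009918-69009939, plus strand).
mmu-miR-16-5p: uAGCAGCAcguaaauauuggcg

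Promoters are shown for Hmgcs1, Cyp51 and Nsdhl of the sterol branch and for Fads2 and Fasn of the fatty acid branch, to show sterol and fatty acid genes with and without these letters. Each is the 250 bases before the start of the gene in RefSeq (GRCm38.p6), read along the gene. Capitals mark the sterol response element TCACNCCAC and the NF-Y box CCAAT on either strand, so that a box on the opposite strand reads ATTGG. The regions are chr13:119690101-119690350 (plus strand) for Hmgcs1, chr5:4104698-4104947 (minus strand) for Cyp51, chrX:72918271-72918520 (plus strand) for Nsdhl, chr19:10101504-10101753 (minus strand) for Fads2 and chr11:120824548-120824797 (minus strand) for Fasn.
Hmgcs1: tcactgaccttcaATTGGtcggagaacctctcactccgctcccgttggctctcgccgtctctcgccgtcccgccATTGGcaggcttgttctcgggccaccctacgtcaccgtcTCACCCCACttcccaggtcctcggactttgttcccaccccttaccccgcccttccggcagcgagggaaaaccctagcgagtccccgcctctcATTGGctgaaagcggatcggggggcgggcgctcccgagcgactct
Cyp51: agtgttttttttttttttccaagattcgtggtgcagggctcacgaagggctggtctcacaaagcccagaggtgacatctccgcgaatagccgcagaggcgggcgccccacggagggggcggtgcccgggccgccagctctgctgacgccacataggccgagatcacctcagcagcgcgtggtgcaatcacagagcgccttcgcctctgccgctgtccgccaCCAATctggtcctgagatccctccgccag
Nsdhl: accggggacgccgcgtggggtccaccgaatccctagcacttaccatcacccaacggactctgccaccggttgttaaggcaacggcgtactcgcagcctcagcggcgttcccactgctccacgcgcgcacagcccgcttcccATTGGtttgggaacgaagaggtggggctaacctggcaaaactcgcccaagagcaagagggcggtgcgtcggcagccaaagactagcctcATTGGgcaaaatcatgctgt
Fads2: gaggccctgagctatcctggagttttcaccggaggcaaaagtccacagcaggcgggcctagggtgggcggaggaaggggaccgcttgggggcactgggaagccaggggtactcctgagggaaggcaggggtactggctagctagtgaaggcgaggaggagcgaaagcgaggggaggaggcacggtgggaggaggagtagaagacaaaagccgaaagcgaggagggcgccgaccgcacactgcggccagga
Fasn: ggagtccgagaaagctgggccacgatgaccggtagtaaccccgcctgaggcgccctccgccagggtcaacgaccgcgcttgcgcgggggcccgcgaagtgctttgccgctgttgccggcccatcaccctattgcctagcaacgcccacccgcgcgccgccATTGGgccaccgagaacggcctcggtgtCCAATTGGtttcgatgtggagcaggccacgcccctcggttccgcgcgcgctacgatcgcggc

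The table held promoters of 27 members, some with more than 1 window, and a gene was counted where any of its windows held a motif. The NF-Y box, bound by a factor that works beside SREBP on many sterol genes, was found for 14 of 15 sterol genes (93.3%) and 2 of 6 fatty acid genes (33.3%), against 37.5% of all 27025 genes. Counted by window, it was in 14 of 18 sterol windows (77.8%), 2 of 6 fatty acid windows and 33.9% of 32851 windows of all genes. The Sp1 box GGGCGG, searched on both strands, was also found for 14 of 15 sterol and 2 of 6 fatty acid genes, against 35.4% of all, and in 15 of 18 and 2 of 6 windows, against 32.7%. These shares were not tested against each other. TCACNCCAC was found in 1 member, Hmgcs1, 137 bases before the start, and for 1.23% of all genes. None of the 3 motifs contains another. Nsdhl held NF-Y boxes 109 and 20 bases before its start and Cyp51 held 1 at 29 bases, whereas Fads2 held none and Fasn held boxes at 90, 62 and 59 bases, the last 2 of them overlapping on opposite strands. A match describes these letters only.

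Every level below is a log2 signal relative to the 75th percentile of its array, and every change is the difference of group means on that scale, pre-miR-16 minus pre-miR-Control, ± SE (n = 3 arrays per group). Genes were called at an adjusted p under 0.05 (limma, Benjamini-Hochberg over all 16293 genes). Values per array are listed in the order of replicates 1, 2 and 3. Of the 35 members, 14 rose, 1 fell and 20 did not pass the test, beside 16.1% of all genes called higher and 33% called lower. The members' median change was 0.47, with 28 of 35 above 0, beside a median of -0.20 over all genes.

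The 75th percentile of signal was 625 to 696 units on the control arrays and 736 to 909 on the pre-miR-16 arrays, without overlap, and the spike-in probes lay 3.80 to 3.95 and 3.28 to 3.64 above it (log2). On all 6 arrays, 57.2% to 64.0% of spots were well above background and no spot was saturated. Scaled on the spike-in probes in place of the 75th percentile, every change moved up by 0.38: 3625 genes were then called higher and 1009 lower, against 2631 and 5374, and among members 21 rose and 0 fell. Slide 1 held replicate 1 of both groups, slide 2 held pre-miR-Control 2 and 3 with pre-miR-16 2, and slide 3 held pre-miR-16 3 alone. A fit with slide as a block therefore takes nothing from pre-miR-16 3 for the comparison of groups. Where a call ended under that block, slide and the loss of this array cannot be told apart. All 11 measured of 12 listed luminal epithelial markers were well above background on every array and 8 of them fell (median -0.56, summed linear signal 1034 to 1165 times the 75th percentile in controls and 629 to 663 after pre-miR-16). Of 13 macrophage markers measured of 16 listed names, 11 rose (median 3.90, sums 14.1 to 15.4 and 43.5 to 53.2), with Ptprc and Mrc1 well above background on 0 of 3 control arrays. Of 12 fibroblast markers, 11 rose (median 3.81, sums 414 to 484 and 645 to 801). Lum, well above background on 1 of 3 control arrays, likewise passed the filter through the pre-miR-16 arrays, and Dcn (-0.07) did not pass the test. Beside these marker counts, 16.1% of all genes were called higher and 33% lower, with a median change of -0.20. In these bulk samples, more cells of a type and more RNA per cell cannot be told apart, and the part of these markers in the results below was not tested.

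The first enzymes of the mevalonate arm take acetyl-CoA to mevalonate, and the later ones build isoprene units. In this arm 2 of 7 genes rose, 0 fell, and all 7 changes of the brightest probes lay above 0 (0.27 to 0.98, median 0.59). With the mean of each gene's probes, Hmgcs1 (-0.039) and Fdps (-0.012) lay just below 0.

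Acat2, the cytosolic thiolase that joins acetyl-CoA units, lay at -2.14, -2.43 and -2.09 in the controls and at -1.12, -1.12 and -1.49 after pre-miR-16. The groups did not overlap, with a change of 0.98 ± 0.15 (adjusted p = 0.00314), and the difference was as large within slide 1 (1.01) as within slide 2 (1.14). Fdps, which makes farnesyl diphosphate at the branch point to sterols and prenylated proteins, lay at 2.89, 3.1 and 3.49 in the controls and at 3.96, 3.67 and 4.0 after pre-miR-16. Its change was 0.72 ± 0.18 (adjusted p = 0.0192), with no overlap, and the nearest arrays of the groups were pre-miR-Control 3 and pre-miR-16 2. The call of Fdps ended with a slide block (0.67, adjusted p = 0.0891). A second probe, annotated to the cDNA AK077979, gave -0.74 ± 0.34 (adjusted p = 0.121 over probes).

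The probe behind the Fdps value matches the RefSeq transcript and is shown because the gene's probes disagree. Its 60 bases span 141 bases of the genome (chr3:89208691-89208831, minus strand, mm7 as in the files), so its match to the genome is split. The Fads2 probe, which carries the largest rise among the enzymes, spans 431 bases (chr19:9744385-9744815, minus strand, mm7).
Fdps: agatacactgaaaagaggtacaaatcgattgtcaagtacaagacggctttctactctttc
Fads2: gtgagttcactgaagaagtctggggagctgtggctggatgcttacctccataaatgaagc

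The other 5 mevalonate genes did not pass the test. Hmgcs1, which makes HMG-CoA, lay at 3.43, 3.40 and 3.92 in the controls and at 4.10, 3.63 and 4.26 after pre-miR-16, so pre-miR-16 2 lay below pre-miR-Control 3 (0.41 ± 0.22, adjusted p = 0.162). Its other kept probes, a RefSeq one (-0.06 ± 0.28) and one on the cDNA AK078743 (-0.47 ± 0.41), lay below 0. Idi1, the isomerase of isoprene units, showed the widest spread: 2.36, 2.55 and 3.29 in the controls against 3.66, 2.42 and 3.91 (0.59 ± 0.44, adjusted p = 0.299). The Idi1 difference was 1.29 within slide 1 and -0.50 within slide 2. Its probes are uncertain, since the files place them on another chromosome (2, mm7) than the current gene table does (13). Mvd, the decarboxylase, came nearest to the threshold (0.65 ± 0.22, adjusted p = 0.0505), and the kinases Mvk (0.27, adjusted p = 0.178) and Pmvk (0.29, adjusted p = 0.318) were smaller.

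In the squalene and sterol arm, 3 of 11 genes rose, 0 fell and 8 did not pass the test, with changes from -0.24 to 1.49 (median 0.35).

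Cyp51, the demethylase of lanosterol, had the largest change of the sterol branch. It lay at -0.90, -0.87 and 0.02 in the controls and at 1.04, 0.56 and 1.13 after pre-miR-16, a change of 1.49 ± 0.29 or 2.81-fold (adjusted p = 0.0074). No pre-miR-16 array overlapped the controls, although the gap to pre-miR-Control 3 was narrow on slide 2. The Cyp51 difference was 1.94 within slide 1 and 0.98 within slide 2, and a fit with slide as a block gave 1.39 (adjusted p = 0.0519).

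Lss, which closes the sterol rings, lay at -0.35, -0.42 and 0.09 in the controls and at 0.73, 0.20 and 0.83 after pre-miR-16. As for Cyp51, pre-miR-16 2 was the lowest of its group, and the change was 0.82 ± 0.22 (adjusted p = 0.0226). The Lss call ended with a slide block (0.67, adjusted p = 0.109), whereas its other probes gave 0.90 (adjusted p = 0.0157 over probes) and 0.83 (0.115). Nsdhl, a dehydrogenase that helps strip the methyl groups of lanosterol, lay at -0.30, -0.32 and -0.08 in the controls and at 0.54, 0.43 and 0.87 after pre-miR-16. It was high on all pre-miR-16 arrays (0.85 ± 0.15, adjusted p = 0.00469), with differences of 0.84 and 0.63 within slides 1 and 2. The other RefSeq probes of Nsdhl gave 0.71 and 0.97, whereas a probe on the cDNA AK156993 went the other way (-0.67 ± 0.15, adjusted p = 0.0113 over probes).

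Among the 8 not called, Sc4mol (now Msmo1), the methyl sterol oxidase, lay at 5.03, 5.06 and 5.62 in the controls and at 5.82, 5.07 and 5.85 after pre-miR-16. As for Idi1, replicates 1 and 3 stood above the controls and replicate 2 among them (slide 1 0.79, slide 2 -0.27). Hsd17b7 (0.49, adjusted p = 0.0857), Fdft1, the squalene synthase (0.35, 0.0737), and Ebp, the sterol isomerase (0.35, 0.133), had positive values. Sqle, the squalene epoxidase (0.09, adjusted p = 0.589), Sc5d (-0.07, 0.589), Tm7sf2 (-0.11, 0.56) and Dhcr7, which makes cholesterol from its last precursor (-0.24, 0.284), lay nearer to the median of all genes. The negative values of Sc5d, Tm7sf2 and Dhcr7 turned positive with spike-in scaling, which adds 0.38 to each.

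Carbon for fatty acids is split from citrate by Acly, carboxylated by Acaca and assembled by Fasn, then lengthened by the Elovl enzymes and desaturated by the Scd and Fads enzymes. In this branch 5 of 9 genes rose, 0 fell and 4 did not pass the test (median 0.47, from -0.35 to 2.14). The largest rises were those of the desaturases Fads2 and Fads1.

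Fads2, the delta-6 desaturase that opens the route to long polyunsaturated fatty acids, lay at -1.30, -1.23 and -0.98 in the controls and at 0.83, 1.25 and 0.84 after pre-miR-16. The groups were far apart, with a change of 2.14 ± 0.16 or 4.41-fold (adjusted p = 0.000166), and the slides gave 2.13 and 2.35. Fads1, the delta-5 desaturase of the same route, lay at -0.29, -0.35 and -0.07 in the controls and at 1.40, 1.82 and 1.40 after pre-miR-16. It rose by 1.77 ± 0.15 or 3.42-fold (adjusted p = 0.000344), and pre-miR-16 2, the array on which many sterol genes were near the controls, was the highest for both desaturases.

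Scd1, which makes oleate from stearate, lay at 0.77, 1.18 and 1.52 in the controls and at 2.33, 1.91 and 2.31 after pre-miR-16. Again pre-miR-16 2 was the lowest of its group without reaching the controls, and the change was 1.02 ± 0.22 or 2.03-fold (adjusted p = 0.0107). Within slide 1 the Scd1 difference was 1.56 and within slide 2 0.55, and blocking on slide ended the call (0.98, adjusted p = 0.0597). Scd2, a second stearoyl desaturase, was not called (0.21, adjusted p = 0.24).

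Acaca, the carboxylase that commits carbon to fatty acids, lay at -1.80, -1.72 and -1.83 in the controls and at -1.13, -1.15 and -1.05 after pre-miR-16. Both groups were tight and apart (0.67 ± 0.08, adjusted p = 0.00153), but only 1 of 4 Acaca probes, on the cDNA BC023946, passed the filter on dim signal. The others, on a RefSeq transcript, were dim and did not show the rise, with differences of group means of -0.37, -0.19 and 0.06. Acly, the citrate lyase, lay at 0.60, 0.25 and 0.52 in the controls and at 0.98, 1.01 and 0.82 after pre-miR-16. Its groups did not overlap (0.47 ± 0.12, adjusted p = 0.0213), and blocking on slide ended the call (0.51, adjusted p = 0.0591). Fasn, the synthase itself, lay at 6.43, 6.21 and 6.34 in the controls and at 6.58, 6.07 and 6.83 after pre-miR-16. Here pre-miR-16 2 lay below every control and the other arrays above (0.17 ± 0.20, adjusted p = 0.522). Elovl5, an elongase of polyunsaturated chains, was lower on every pre-miR-16 array without passing the test (-0.35 ± 0.12, adjusted p = 0.0527; 0.03 with spike-in scaling). Elovl6, an elongase of saturated chains, gave -0.03 ± 0.12 (adjusted p = 0.866; 0.36 with spike-in scaling).

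**Figure D1:**
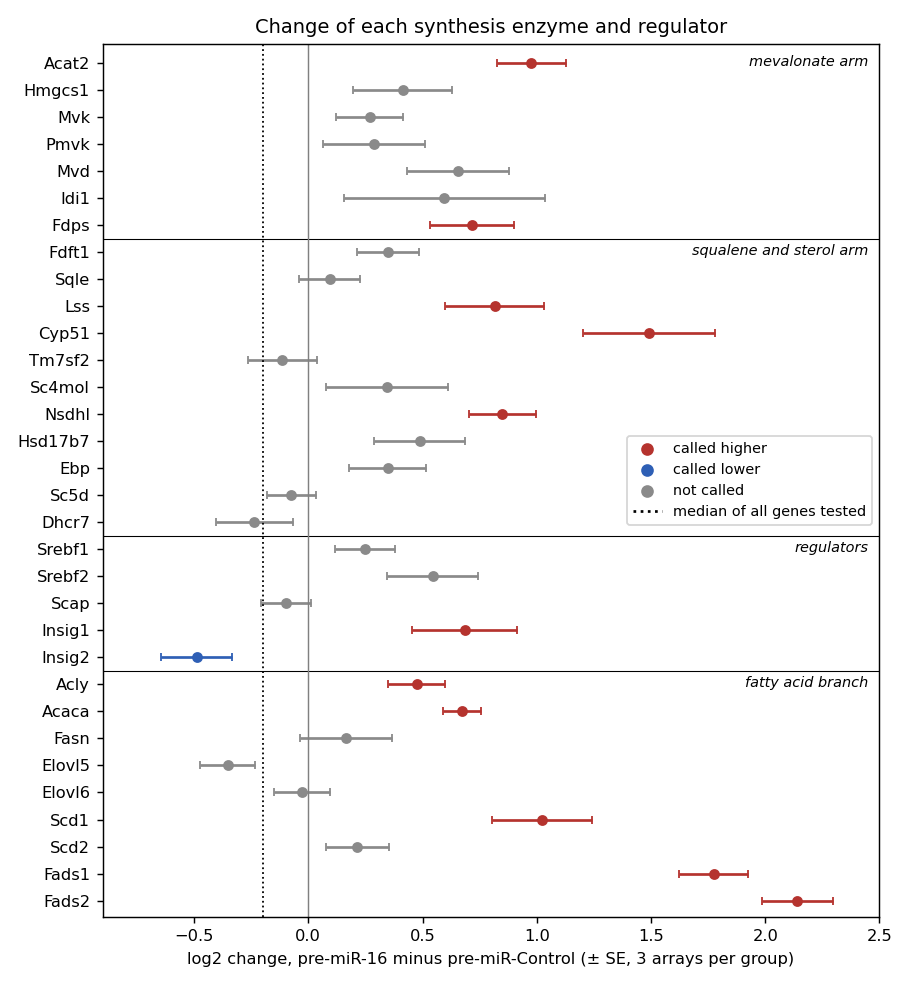
Change of each enzyme and regulator on the log2 scale (horizontal axis, ± SE, 3 arrays per group), coloured by call; the dotted line is the median of all genes tested, -0.20. Fads2 at 2.14 and Fads1 at 1.77 lie farthest to the right, then Cyp51 at 1.49, and Insig2 at -0.49 is the single gene called lower.

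Set side by side, the medians of the branches were close over all arrays (0.38 for sterol, 0.47 for fatty acid) but lay apart on pre-miR-16 2. Measured from the mean of the controls, the sterol median was -0.11, -0.16 and 0.22 on the controls and 0.57, 0.05 and 0.58 on the pre-miR-16 arrays. The fatty acid median was -0.01, -0.06 and 0.15 on the controls and 0.52, 0.55 and 0.50 on the pre-miR-16 arrays. It was the value of Acly on pre-miR-16 1 and 2 and of Fasn on pre-miR-16 3. Fatty acid genes also dipped on pre-miR-16 2: Fasn (0.25, -0.26 and 0.50), Scd1 (1.17, 0.75 and 1.15), Scd2 (0.30, -0.01 and 0.36) and Elovl5 (-0.16, -0.56 and -0.34). Acaca was lowest there by little, whereas Acly, Fads1, Fads2 and, by little, Elovl6 were highest there. On pre-miR-16 1 and 3, 14 and 15 of the 18 sterol genes exceeded every control, whereas on pre-miR-16 2 only 6 did and 5 lay below every control. For the 9 fatty acid genes the counts above every control were 7, 5 and 7, and the counts below every control were 1, 2 and 1. The share over all genes is not given here, so these counts are not read as particular to either branch. In the deposited matrix the low sterol median stands in the column of replicate 1 (0.25), so which of these 2 replicate numbers belongs to that array is not known. In that column the fatty acid median was 0.45, so the branches lay closer than in the scanner files. The sterol median there also lay above those of all control columns (highest 0.20).

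The difference between the branch medians (sterol minus fatty acid) was 0.05 and 0.08 on pre-miR-16 1 and 3 and -0.50 on pre-miR-16 2, beside -0.10, -0.10 and 0.08 on the controls. No p is given for it, since the genes were grouped with results known. Within slide 1 the median difference between groups was 0.63 for sterol and 0.37 for fatty acid genes, and within slide 2 it was 0.00 and 0.55. Also on slide 2, pre-miR-Control 3 had the highest sterol median of the controls. Without pre-miR-16 2, 22 of the 35 members were called higher in place of 14, beside 3297 of all genes in place of 2631. Among the 22 were 11 of 18 sterol genes, including all 7 of the mevalonate arm, and 6 of 9 fatty acid genes. Without pre-miR-Control 1 or 2, or pre-miR-16 1 or 3, 3 sterol genes were called higher in place of 5. The counts over all genes were then 2381, 2087, 2163 and 2236, in that order. With a slide block 2 sterol and 3 fatty acid genes were called higher, beside 2064 of all genes. Pre-miR-16 2 also stood apart for Fabp4 of the adipocyte list, at 4.08, 0.85 and 3.98 on the pre-miR-16 arrays. On the controls Fabp4 lay at -1.58, -0.32 and -0.45. Of the 9 names on that list 3 were measured, and only Fabp4, the brightest, rose. Cidec (-3.09, -4.17 and -4.17 after pre-miR-16) and Retn (-4.36, -3.78 and -3.89) were not called and did not show that pattern. The summed signal of the list was 0.43 to 0.95 in controls and 1.93 to 17.1 after pre-miR-16. Whether the Fabp4 pattern bears on the sterol genes was not tested.

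**Figure D2:**
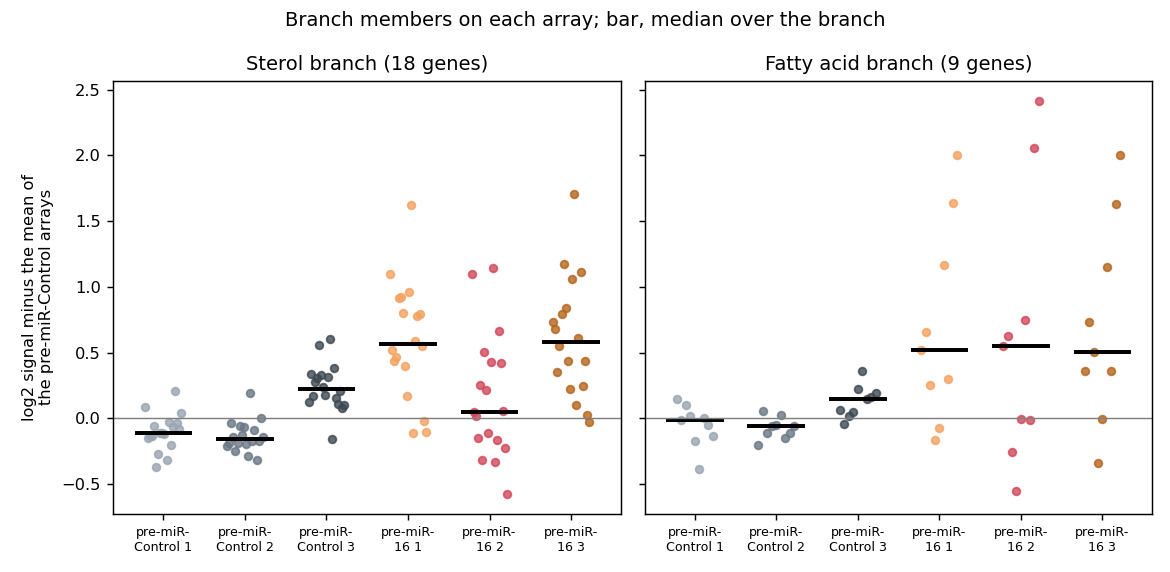
Genes of the sterol branch (18, left) and fatty acid branch (9, right) on each array, as log2 signal minus the control mean of the gene (vertical axis); each point is a gene and each bar the median of the branch. The sterol bar stands at 0.57 and 0.58 on pre-miR-16 1 and 3 and at 0.05 on pre-miR-16 2, whereas the fatty acid bars stand at 0.50 to 0.55 on all 3. Among the fatty acid genes, Fasn, Scd1, Scd2 and Elovl5 were also lower on pre-miR-16 2 than on the other pre-miR-16 arrays.

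Of the 5 regulators, 1 rose, 1 fell and 3 did not pass the test. Both Insig calls lay close to the threshold and in opposite directions.

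Insig1, an anchor that is itself an SREBP target, lay at -3.24, -3.58 and -2.66 in the controls and at -2.47, -2.49 and -2.47 after pre-miR-16. The groups did not overlap, but the controls were wide (0.68 ± 0.23, adjusted p = 0.0482). A second Insig1 probe gave 0.82 (adjusted p = 0.0267 over probes), and normexp background correction gave 0.31 for the first (adjusted p = 0.0528). Insig2, a second anchor of the same kind, lay at 3.72, 3.75 and 3.95 in the controls and at 3.46, 3.02 and 3.47 after pre-miR-16. It fell by 0.49 ± 0.15 (adjusted p = 0.0402), with a second probe at -0.60, but with spike-in scaling the value was -0.10 (adjusted p = 0.757). Insig1 kept its call under 6 and Insig2 under 7 of 19 alternative settings.

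Srebf2, the gene of SREBP-2, lay at 4.0, 3.89 and 4.38 in the controls and at 4.80, 4.29 and 4.81 after pre-miR-16. As for many sterol enzymes, pre-miR-16 2 lay below pre-miR-Control 3, and the change of 0.55 ± 0.20 did not pass (adjusted p = 0.0625), although it did under 9 of 19 alternatives. Among those 9 was the fit with replicate number as a block, from which no call is read. Its 4 probes ranged from 0.24 to 1.25, and the highest value, on a RefSeq probe dimmer than the one used, passed over all probes (1.25 ± 0.20, adjusted p = 0.00378). Srebf1, the gene of SREBP-1, lay at 4.12, 3.99 and 4.17 in the controls and at 4.47, 4.10 and 4.44 after pre-miR-16, with overlap (0.25 ± 0.13, adjusted p = 0.165). Scap, the escort of SREBP, lay at 4.44, 4.51 and 4.55 in the controls and at 4.37, 4.27 and 4.58 after pre-miR-16. Its change was -0.10 ± 0.11 (adjusted p = 0.49), and its sign turned under quantile normalization (0.03), spike-in scaling (0.29) and in the deposited matrix (0.02).

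**Figure D3:**
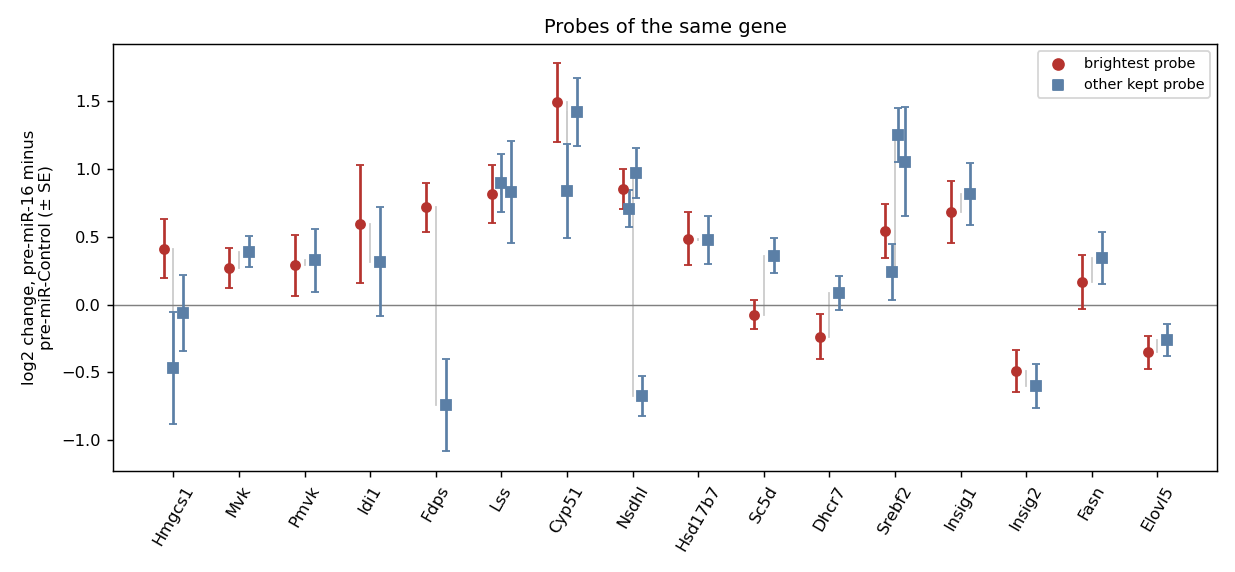
Change (log2, ± SE, vertical axis) of every kept probe for enzymes and regulators with more than 1 kept probe; circles are the brightest probe, used for the gene, and squares the others. Probes of Cyp51, Lss and Insig2 lie on the same side of 0, whereas Fdps (0.72 and -0.74) and Nsdhl (0.71 to 0.97 and -0.67), Hmgcs1 (0.41, -0.06 and -0.47), Sc5d (-0.07 and 0.36) and Dhcr7 (-0.24 and 0.08) have probes on both sides.

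All 3 transport genes rose. Abca1, which loads cholesterol onto lipid-poor apolipoprotein at the cell surface, did not exceed its background limit on any control (-6.66, -6.48 and -6.06) and lay at -0.43, -0.14 and -0.25 after pre-miR-16. The fold was therefore taken against the mean, over the controls, of the higher of each array's detection floor and the probe's own signal. On that basis Abca1 was 33.3-fold higher after pre-miR-16 (log2 5.06), an estimate without an error that depends on the processing. The limma fit, on the levels themselves, gave adjusted p = 1.16e-05. Abca1 passed the filter on dim signal only through the pre-miR-16 arrays. With normexp background correction, which adds an offset, its log2 change was 2.87. Abca1 was high on all pre-miR-16 arrays alike.

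Abcg1, a partner exporter that passes cholesterol to mature lipoproteins, lay at -1.12, -1.18 and -0.92 in the controls and at -0.23, -0.02 and -0.22 after pre-miR-16. The groups were apart on both slides (0.89 and 1.02), with a change of 0.91 ± 0.11 or 1.88-fold (adjusted p = 0.00141). Stard4, a soluble carrier of cholesterol between membranes, likewise stayed within background on the controls (-5.76, -5.76 and -6.26) and lay at -2.34, -2.06 and -2.94 after pre-miR-16. On the same basis as Abca1 it was 7.39-fold higher (log2 2.89), and the limma fit gave adjusted p = 0.000182. A second probe gave a smaller log2 change, 1.58 ± 0.71 (adjusted p = 0.114 over probes), as did normexp correction (1.31). Stard4 too passed the filter on dim signal only through the pre-miR-16 arrays. For all 3 transport genes, as for Fads1 and Fads2, pre-miR-16 2 was the highest array.

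Of 35 other genes of lipid synthesis, its control and lipid handling, 30 were measured, and 11 rose, 2 fell and 17 did not pass (median 0.25). The shares over all genes were 16.1% called higher and 33% called lower, with a median change of -0.20. The 4 largest rises were of Ch25h, Vldlr, Lpl and Acacb. Ch25h, which makes an oxysterol that holds back SREBP and activates LXR, lay at -2.83, -2.98 and -4.23 in the controls and at 1.38, 1.70 and 1.03 after pre-miR-16 (4.72 ± 0.40, adjusted p = 0.000317). Vldlr, a lipoprotein receptor, rose by 3.76 ± 0.09 (adjusted p = 1.14e-05), from between -3.87 and -3.74 to between -0.11 and 0.03. Lpl, which frees fatty acids from lipoproteins, rose by 2.74 ± 0.20 (adjusted p = 0.000171), and Acacb, the mitochondrial carboxylase, by 2.02 ± 0.14 (adjusted p = 0.000128).

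The 2 genes that fell were Mbtps2 and Ggps1. Mbtps2, the protease that makes the second cut of SREBP in the Golgi, fell by 1.13 ± 0.16 (adjusted p = 0.00217), from between -3.94 and -3.56 to between -5.16 and -4.74. Ggps1, which leads farnesyl diphosphate away from sterols to geranylgeranyl diphosphate, fell by 0.51 ± 0.10 (adjusted p = 0.00758). The LXR genes Nr1h2 (0.02, adjusted p = 0.898) and Nr1h3 (0.02, adjusted p = 0.896) did not pass the test.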

How the data were processed

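Each of 6 cultures was measured on 1 Cy3 array. The deposited scanner files hold spot intensity values, background-subtracted and corrected for trends within the array by Agilent Feature Extraction 9.5.3.1, per the file headers, and not normalized between arrays. The deposited series matrix holds log2 values whose normalization no source used here states (column medians 6.79 to 6.81, lowest value 5.65). Its columns for pre-miR-16 replicates 1 and 2 each followed the other's scanner file more closely (Spearman 0.965 and 0.970) than their own (0.946 and 0.944), and which of these 2 replicate labels is right is not known. Array-by-array values come from the scanner files, so pre-miR-16 2 means the array of that file, which lies on slide 2 under either label, and in the matrix the lower sterol median was in the column of replicate 1 (0.25, against 0.56 and 0.57).

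With R 4.3.3, limma 3.58.1 and the data.table package (1.17.8), control spots and outlier spots (74 to 113 per array) were left out, spots of a probe were averaged on the log2 scale and scaled by subtracting the 75th percentile of each array. The filter on dim signal required, on every array of 1 or both groups, a share of at least 0.5 of a probe's spots to be marked by the scanner software as clearly above background. Each gene name, as in the files, was represented by its brightest kept probe. Groups were compared with lmFit and eBayes over 16293 genes, with no covariate, and a 3 against 3 exact permutation test could not give p under 0.1. Arrays sharing a replicate number did not deviate together (correlations -0.09, -0.02 and -0.00). The code was tested on simulated data. Probe coordinates are those of the files (mm7). Current names came from a RefSeq table, which matched all 35 genes (34 by accession, Idi1 by symbol), and promoters and miR-16 from RefSeq tables on GRCm38.p6.

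Genes described with values on every array are the members called and every regulator and transport gene; others have values where a comparison of branches or probes turns on them. Of the other pathway genes, up to 4 called with the largest rise and 4 with the largest fall are named; only 2 fell. The members and lists were chosen with earlier results of these data known. The alternatives were quantile normalization, median centring, spike-in scaling (8 probes), normexp background correction (offset 50), the matrix values, other filters, the mean of a gene's probes, other eBayes settings, replicate number or slide as a block, a 2-fold minimum, each array left out in turn, and values within slides.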

Additional observations from a re-analysis of the deposited data

How the results depend on the processing

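Precision is limited by 3 arrays per group and, for Abca1, Stard4 and Insig1, by signal near background. Fads1 and Fads2 were called higher under all 19 alternatives, and Abca1 and Stard4 under the 18 that kept them (the filter for signal on all 6 arrays drops both). The probes used for Abca1 and Stard4 lay within background on every control. The 18 alternatives share that control signal and are not separate support for these calls. The call of Acat2, Nsdhl, Abcg1 and Acaca ended only with the 2-fold minimum, and those of Cyp51 and Scd1 only with slide as a block. That block takes nothing from pre-miR-16 3, alone on its slide, so its counts rest on fewer arrays. Against 14 as reported, 8 members were called higher with slide as a block and 6 with the 2-fold minimum, and the number ranged from 10 to 22 when 1 array was left out, 22 being without pre-miR-16 replicate 2. The counts over all genes moved too, from 2631 as reported to 2064 with slide as a block and 1702 with the 2-fold minimum. They ranged from 2087 to 3297 when 1 array was left out, 3297 being without pre-miR-16 replicate 2. Against 1 as reported, 2 members were called lower with signal required on all 6 arrays and with eBayes with trend and robust fitting. No member was called lower (0) with quantile normalization, median centring, spike-in scaling, no filter on dim probes, the replicate block, slide as a block or the 2-fold minimum, and the number ranged from 0 to 1 when 1 array was left out. With the replicate number as a block, 14 members were called higher, the number of the fit without it. Since the numbers do not pair the arrays, no call is read from that fit, though it counts among the 19 alternatives. The 19 also include the 2-fold minimum, which no change under 2-fold can pass. The 2-fold minimum left 6 of the 13 calls among the other pathway genes, and leaving out 1 array gave 10 to 17. Spike-in scaling moved the sterol median to 0.77 and the fatty acid median to 0.86, and within slide 2 the sterol median was 0.0040 and the sterol minus fatty acid difference -0.55, against -0.09 over all arrays. With the mean of its probes Fdps changed by -0.012 (adjusted p = 0.972), because its probes have opposite signs. The sign of Scap, never called, turned with quantile normalization (0.033), spike-in scaling (0.29) and the matrix values (0.015). The 4 calls of Fdps, Lss, Insig1 and Insig2 each ended under at least 7 alternatives, and that of Acly under 8; for these the cause was not tested.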

Other observations

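Beside the 4 largest rises among the other pathway genes, 7 more passed the test, and they are named here after their values were seen. Mylip, which marks lipoprotein receptors for degradation and is a known LXR target, lay at -0.74, -0.74 and -0.79 on the control arrays and at 0.45, 0.43 and 0.77 after pre-miR-16 (1.3 ± 0.12, adjusted p = 0.000428, limma). The groups were far apart, and pre-miR-16 2 did not lie near the controls. Acsl5, which activates fatty acids for use, rose by 0.81 ± 0.12 (adjusted p = 0.00314), and Soat1, which esterifies cholesterol for storage, by 0.54 ± 0.12 (adjusted p = 0.0107). Elovl1 (0.47), Lpin1 (0.46) and Slc25a1, the citrate carrier that feeds fatty acid synthesis (0.37), rose by less, and Ppargc1b (0.89 ± 0.30, adjusted p = 0.0494) was close to the threshold. Ppargc1b was well above background on 1 of 3 control arrays and passed the filter on dim signal through the pre-miR-16 arrays.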
